A study of Mus musculus with 6 samples.

Results

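The BCL2 family decides at the mitochondrial outer membrane whether a cell survives or dies, and 10 of its genes were followed through the activation of mouse CD4+ T cells. They were chosen by name: the survival genes *Bcl2*, *Bcl2l1* and *Mcl1*, the pore-forming effectors *Bax* and *Bak1*, and the BH3-only genes *Bcl2l11*, *Bbc3*, *Pmaip1*, *Bid* and *Bad*. All 10 were among the 14379 genes of the deposited table, and all 10 were among the 10173 genes that passed the filter on low values and were tested. In activated cells 7 of the 10 were higher and 2 lower, and 1 did not pass the test, where 31.2% of all genes tested were higher and 21.6% lower (52.8% in either direction).

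Naive CD4+ T cells were FACS isolated from lymph nodes and spleen of wild-type C57BL/6 mice, and their polyA RNA was sequenced at day 0 in 3 libraries. Another 3 libraries came from such cells after 48 hours (day 2) of stimulation with plate-coated anti-CD3 and soluble anti-CD28 under nonpolarizing conditions. No genetic change was made in either group, and the replicates were described as biologically independent. The design has no culture of 48 hours without stimulation, and the effects of activation and of culture time cannot be told apart.

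BCL2, BCL-XL (the product of *Bcl2l1*) and MCL1 keep cells alive by binding the other members of the family in a surface groove. BAX and BAK, once set free or activated, assemble in the outer membrane and let cytochrome c out, which starts the caspase cascade. The BH3-only proteins are the sensors: they insert their BH3 helix into the groove of the survival proteins, and some of them also activate BAX and BAK directly. In T cells the family sets the lifespan of resting cells, which depend on IL-7 signals, and the contraction of the population after a response.

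The BH3 helix carries an invariant leucine and an aspartate. In a pro-death helix bound to a survival protein, the leucine side chain enters the groove and the aspartate pairs with an arginine there. The BH3 stretch is shown here because survival and pro-death members share it, and because pro-death members bind the groove of survival members through theirs. The pattern searched began with a leucine codon, 3 further codons and a codon for glycine, alanine or serine. An aspartate codon and a codon for aspartate, glutamate or glycine followed. In each of the 9 members shown, the coding sequence held exactly 1 match. *Pmaip1* was left out of this listing, and whether it holds a match is not reported here. The 24 bases below (8 codons, GENCODE transcripts on GRCm38/mm10) run 5′ to 3′ on the coding strand, with the leucine and aspartate codons in capitals.
*Bcl2*, exon 1, chr1:106712578-106712601 (minus strand): CTCcgccgggctgggGATgacttc
*Bcl2l1*, exon 2, chr2:152829700-152829723 (minus strand): CTGagagaggcaggcGATgagttt
*Mcl1*, exon 1, chr3:95659436-95659459 (plus strand): CTGcggcgcgtgggcGACggcgtg
*Bax*, exon 3, chr7:45466000-45466023 (minus strand): CTCcggcgaattggaGATgaactg
*Bak1*, exon 4, chr17:27022534-27022557 (minus strand): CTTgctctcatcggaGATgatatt
*Bcl2l11*, exon 3, chr2:128147150-128147173 (plus strand): CTGcggcggatcggaGACgagttc
*Bbc3*, exon 3, chr7:16313773-16313796 (plus strand): CTGcggcggatggcgGACgacctc
*Bid*, exon 4, chr6:120897292-120897315 (minus strand): CTCgcccaaataggcGATgagatg
*Bad*, exon 3, chr19:6950792-6950815 (plus strand): CTCcgaaggatgagcGATgagttt

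Values below are the deposited log2 expression of each library, given for naive replicates 1, 2 and 3 and then for activated replicates 1, 2 and 3. The columns are headed FPKM, which is expression per transcript length and sequencing depth. That they are per length rests on this heading alone, and so do all levels, shares and ratios that set one gene beside another here. A log2 of 1.99 (3.97 on the linear scale) is the base value that all libraries share, held by 688 to 923 genes per library. A minority of values lie below it. Because the base is part of every value, a log2 fold change understates the change of a gene of low expression. Linear units above the base are therefore also given, as values with no test. Read counts were not part of the table, which leaves the depth unknown. A gene was called higher or lower when its change reached 1.5-fold with an adjusted p under 0.05 (limma, Benjamini-Hochberg over the 10173 genes), and p-values measure the spread left after the authors' batch correction. All libraries are of bulk RNA, in which fewer cells of a type and less RNA per cell cannot be told apart.

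The survival genes did not move together: *Bcl2* and *Mcl1* fell and *Bcl2l1* rose. *Bcl2*, on chromosome 1 (106538178 to 106714274, minus strand), is the founding member of the family and a main survival gene of resting T cells. Its log2 expression was 5.59, 5.31 and 5.72 in the naive libraries and 3.98, 3.54 and 3.46 in the activated libraries. Every activated library lay below every naive library. The change of *Bcl2* was -1.88 in log2 (standard error 0.17, adjusted p = 1.1e-05 from limma), or 3.69-fold lower on the deposited scale. In linear units above the base its mean went from 42.9 ± 6.51 (SD, n = 3) to 8.81 ± 2.58 (SD, n = 3).

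*Mcl1*, on chromosome 3 (95658788 to 95663176, plus strand), encodes a short-lived survival protein that T cells need at all stages. It had the highest log2 expression of the 10 genes in naive cells, at 8.05, 8.29 and 8.53. In activated cells it stood at 7.21, 7.06 and 6.87, again with no overlap between the groups. Its log2 fold change was -1.24 (standard error 0.16, adjusted p = 9.6e-05 from limma), or 2.37-fold lower, and the mean in linear units above the base was 312 ± 52.97 (SD, n = 3) in naive cells, against 128.9 ± 15.6 (SD, n = 3) after activation. Although it fell, *Mcl1* stayed among the 4 members of highest expression in activated cells.

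*Bcl2l1*, on chromosome 2 (152780668 to 152831728, minus strand), had the largest log2 fold change of the 10 members. It was low in naive cells, with log2 values of 3.25, 3.52 and 3.05, and reached 7.25, 6.78 and 6.80 in activated cells. The lowest activated library thus lay more than 3 log2 units above the highest naive library. The log2 fold change was 3.67 (standard error 0.18, adjusted p = 2.7e-07 from limma), or 12.7-fold on the deposited scale, and it ranked 35 of the 10173 genes from the most increased downwards. In linear units above the base the mean went from 5.79 ± 1.61 (SD, n = 3) to 120.5 ± 23.97 (SD, n = 3), a ratio of 20.8.

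**Figure D1:**
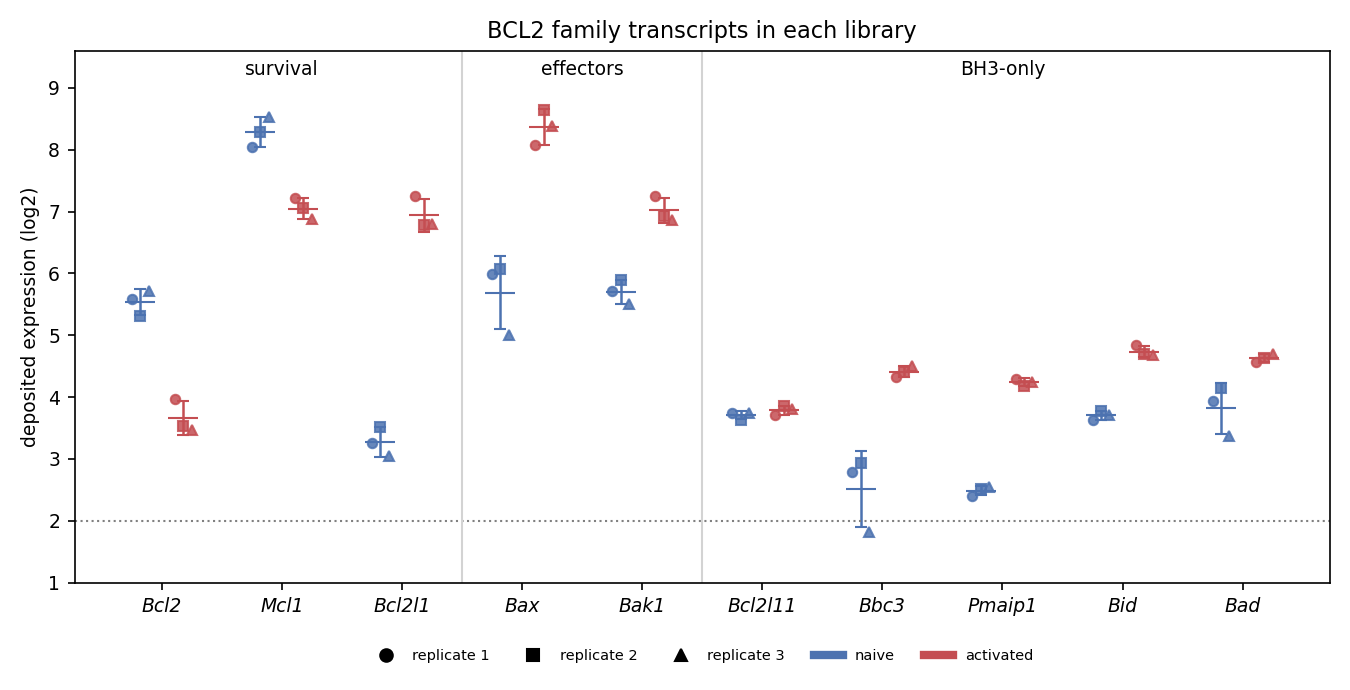
Deposited log2 expression of the 10 BCL2 family genes (y axis) in 3 naive (blue) and 3 activated (red) libraries; points are libraries, marked by replicate, horizontal lines are means, bars are 1 SD and the dotted line is the shared base value of 1.99. *Bcl2* and *Mcl1* lie lower in activated cells, *Bcl2l11* overlaps between the groups, and the other 7 genes lie higher. Among the naive libraries, replicate 3 is lowest for *Bax*, *Bbc3*, *Bad*, *Bcl2l1* and *Bak1* and highest for *Bcl2*, *Mcl1*, *Bcl2l11* and *Pmaip1*.

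Both effectors were higher in activated cells. *Bax*, on chromosome 7 (45461697 to 45466898, minus strand), encodes the effector that is mainly cytosolic in healthy cells and moves to the mitochondria on a death signal. Log2 values of *Bax* were 5.995, 6.07 and 5.01 in naive and 8.07, 8.64 and 8.39 in activated libraries, so that it took the highest place of the 10 genes in activated cells. The groups did not overlap. The log2 fold change was 2.68 (standard error 0.28, adjusted p = 2.2e-05 from limma), or 6.39-fold. Naive replicate 3 differed from the mean of naive replicates 1 and 2 by -1.02 log2 units, and without it the log2 fold change was 2.34 and still called.

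*Bak1*, on chromosome 17 (27019810 to 27029009, minus strand), encodes the effector that resides in the outer membrane. *Bak1* stood at log2 values of 5.71, 5.89 and 5.51 in naive and 7.25, 6.93 and 6.87 in activated libraries, without overlap. It changed by 1.31 in log2 (standard error 0.16, adjusted p = 5.4e-05 from limma). The log2 difference of *Bax* minus *Bak1* was 0.28, 0.18 and -0.50 in the naive libraries, with a mean of -0.01 ± 0.42 (SD, n = 3). This mean near the level of *Bak1* thus rests on naive replicate 3, where *Bax* was low. In activated cells *Bax* stood 1.35 ± 0.47 (SD, n = 3) above *Bak1*. In linear units above the base, *Bax* made up 49.7% ± 8.03 (SD, n = 3) of the sum of both effectors in naive cells, against 71.9% ± 6.88 (SD, n = 3) after activation.

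Of the 5 BH3-only genes 4 rose, all from low levels. *Bbc3* encodes PUMA, which binds all the survival proteins and is a classical target of p53. It lies on chromosome 7 (16308393 to 16318205, plus strand). *Bbc3* was at log2 values of 2.79, 2.94 and 1.82 in naive and 4.32, 4.41 and 4.51 in activated libraries, and in naive replicate 3 it lay below the base value. Its log2 fold change was 1.90 (standard error 0.25, adjusted p = 1.2e-04 from limma), and 1.55 without naive replicate 3, where it was still called. Because *Bbc3* starts so near the base, this value depends on the scale: with a pseudocount of 0.5 on the units above the base the log2 fold change was 3.21.

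*Pmaip1*, on chromosome 18 (66458533 to 66465565, plus strand), encodes NOXA, which binds MCL1 and A1 in preference to the other survival proteins. Its log2 expression was 2.40, 2.51 and 2.54 in naive and 4.30, 4.17 and 4.25 in activated libraries, and the groups did not overlap. Its log2 fold change was 1.75 (standard error 0.10, adjusted p = 5.9e-07 from limma). In linear units above the base the mean went from 1.63 ± 0.28 (SD, n = 3) to 14.9 ± 0.82 (SD, n = 3), a ratio of 9.15, and the log2 fold change was 2.86 with the same pseudocount of 0.5. *Pmaip1* and MCL1's gene drew closer: *Mcl1* stood 5.81 ± 0.18 (SD, n = 3) log2 units above *Pmaip1* in naive cells, against 2.81 ± 0.16 (SD, n = 3) after activation.

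*Bid* links the death receptors to the mitochondria, since caspase-8 cuts its product into the active form. It lies on chromosome 6 (120891930 to 120916853, minus strand). Log2 expression was 3.63, 3.77 and 3.72 in naive and 4.84, 4.69 and 4.68 in activated libraries, with no overlap. The log2 fold change of *Bid* was 1.03 (standard error 0.12, adjusted p = 4.1e-05 from limma).

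*Bad*, on chromosome 19 (6941861 to 6951899, plus strand), encodes a protein that binds BCL2 and BCL-XL and is held inactive by phosphorylation. Its log2 expression was 3.93, 4.15 and 3.37 in naive and 4.56, 4.63 and 4.71 in activated libraries. The groups did not overlap, but they came close, and *Bad* had the smallest change of the called members: 0.82 (standard error 0.19, 95% confidence interval 0.38 to 1.25, adjusted p = 0.0038 from limma). Naive replicate 3 differed from the mean of naive replicates 1 and 2 by -0.68 log2 units. Without it the log2 fold change was 0.59, just past the 1.5-fold threshold, and *Bad* was not called at a 2-fold threshold.

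*Bcl2l11* encodes BIM, which binds all the survival proteins and is the BH3-only protein best known for removing T cells in the thymus and after a response. It lies on chromosome 2 (128126038 to 128162547, plus strand). Its log2 expression was 3.74, 3.63 and 3.75 in naive and 3.71, 3.85 and 3.81 in activated libraries. It was the only member whose groups overlapped. The log2 fold change was 0.08 (standard error 0.11, 95% confidence interval -0.16 to 0.33, adjusted p = 0.51 from limma), and it was -0.00555 with median-of-ratios scaling of the libraries. Relative to *Bcl2l11*, *Bcl2* stood 1.84 ± 0.14 (SD, n = 3) log2 units higher in naive cells, against -0.13 ± 0.35 (SD, n = 3) after activation, while *Bcl2l1* went from -0.43 ± 0.30 (SD, n = 3) to 3.15 ± 0.34 (SD, n = 3).

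Over all genes tested 31.2% were higher and 21.6% lower, and every count of genes below is to be read beside these shares. The 10 members had 7 higher and 2 lower and a median log2 fold change of 1.17, beside 0.13 for all genes tested. By role, 6 of the 7 pro-death genes and 1 of the 3 survival genes were higher, with medians of 1.31 and -1.24. In 7 members every activated library lay above every naive library and in 2 every one lay below, while over all genes tested 43.9% and 32.9% were separated in these directions, 76.8% in either. With a background this high, and so few genes, the counts describe the members and were not tested.

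**Figure D2:**
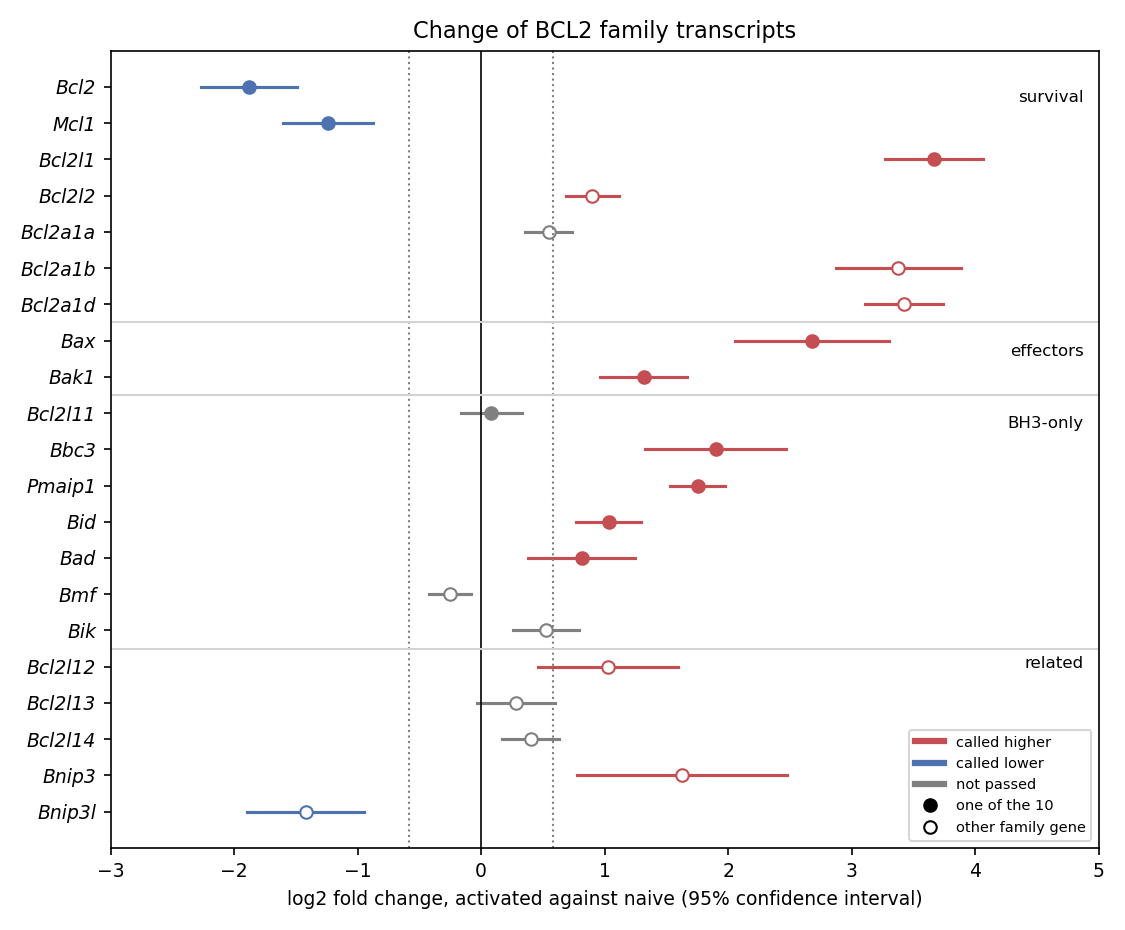
Log2 fold change of activated against naive cells (x axis) with its 95% confidence interval from limma for the 10 members (filled points) and 11 other family genes (open points), grouped by role; red was called higher, blue lower, grey not passed, and dotted lines mark 1.5-fold. *Bcl2l1*, *Bcl2a1b* and *Bcl2a1d* lie furthest to the right, at 3.67, 3.38 and 3.42, and *Bcl2* lies furthest to the left at -1.88.

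The order of expression within the family was rearranged. In naive cells *Mcl1* came first, followed by *Bak1*, *Bax* and *Bcl2*, whose ranges overlapped from each to the next. Then came *Bad*, *Bcl2l11* and *Bid*, likewise overlapping, then *Bcl2l1*, and last *Bbc3* and *Pmaip1*, which overlapped. In activated cells *Bax* came first, above *Mcl1*, *Bak1* and *Bcl2l1*, which overlapped from each to the next. *Bid* and *Bad*, which overlapped, *Bbc3* and *Pmaip1* followed, and *Bcl2l11* and *Bcl2*, which overlapped, came last. *Bcl2* and *Bcl2l1* reversed their order relative to each other: the log2 difference of *Bcl2l1* minus *Bcl2* was -2.34, -1.80 and -2.67 in the naive libraries and 3.27, 3.24 and 3.34 in the activated libraries.

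When linear units above the base were summed for each library, the sum of *Bcl2*, *Bcl2l1* and *Mcl1* was 310.5, 351.9 and 419.6 in naive and 304.3, 242.5 and 227.8 in activated cells. The range of the activated libraries thus ended just below that of the naive libraries. What changed more was the make-up of this sum. *Mcl1* gave 86.4% ± 2.04 (SD, n = 3) of it in naive cells, against 50.1% ± 2.92 (SD, n = 3) after activation, and *Bcl2l1* went from 1.65% ± 0.57 (SD, n = 3) to 46.5% ± 2.61 (SD, n = 3). *Bcl2* went from 12% ± 2.04 (SD, n = 3) to 3.37% ± 0.43 (SD, n = 3).

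The sums of the pro-death genes were higher in every activated library. The effectors together had 108.2, 118.5 and 69.8 units above the base in naive and 413.2, 513.0 and 444.4 in activated libraries. The 5 BH3-only genes together had 33.3, 37.4 and 26.8 units in naive and 85.1, 84.5 and 87.7 in activated libraries, with *Bbc3* of naive replicate 3 entered as 0. The effectors thus held most of the pro-death sum in both groups. The ratio of the 3 survival genes to the 7 pro-death genes was 2.19, 2.26 and 4.34 in naive and 0.61, 0.41 and 0.43 in activated libraries, and 1.90, 1.98 and 3.48 against 0.60, 0.41 and 0.43 when the base was not subtracted. These ratios are of transcripts, not of proteins.

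That ratio also depends on which survival genes are counted, since the family has others beside the chosen 3. *Bcl2a1b* and *Bcl2a1d* are mouse copies of the gene for A1, a short-lived survival protein that NF-κB induces in lymphocytes. *Bcl2a1b* had log2 values of 5.15, 4.96 and 4.35 in naive and 7.89, 8.30 and 8.41 in activated libraries (log2 fold change 3.38, standard error 0.22, adjusted p = 1.5e-06 from limma). *Bcl2a1d* had log2 values of 4.86, 4.62 and 4.90 and then 8.04, 8.32 and 8.27 (log2 fold change 3.42, standard error 0.14, adjusted p = 1.2e-07 from limma). *Bcl2a1a*, the third copy, stayed near the base with a log2 fold change of 0.55 (adjusted p = 3.0e-04 from limma), under 1.5-fold. The coding sequences of the 3 copies, all on chromosome 9, were 97.9% to 98.8% identical over 516 bases, with 6 to 11 differences a pair. *Bcl2a1b* also shares 401 of its 817 exonic bases with the gene model Gm29094, so the split of reads between these genes is uncertain.

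Summed over the 3 *Bcl2a1* copies, expression was 56.6, 48.2 and 42.3 units above the base in naive and 493.7, 628.9 and 644.1 in activated libraries. In activated cells this exceeded *Bcl2*, *Bcl2l1* and *Mcl1* together in every library. With the *Bcl2a1* copies counted as survival genes, the ratio to the pro-death genes was 2.59, 2.57 and 4.78 in naive and 1.60, 1.46 and 1.64 in activated libraries. The ratio was lower in activated cells in both versions, but fell below 1 only when the *Bcl2a1* copies were left out. How reads that match more than 1 copy were counted was not described. The sum of the copies, and the comparisons that rest on its size, are therefore uncertain too.

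**Figure D3:**
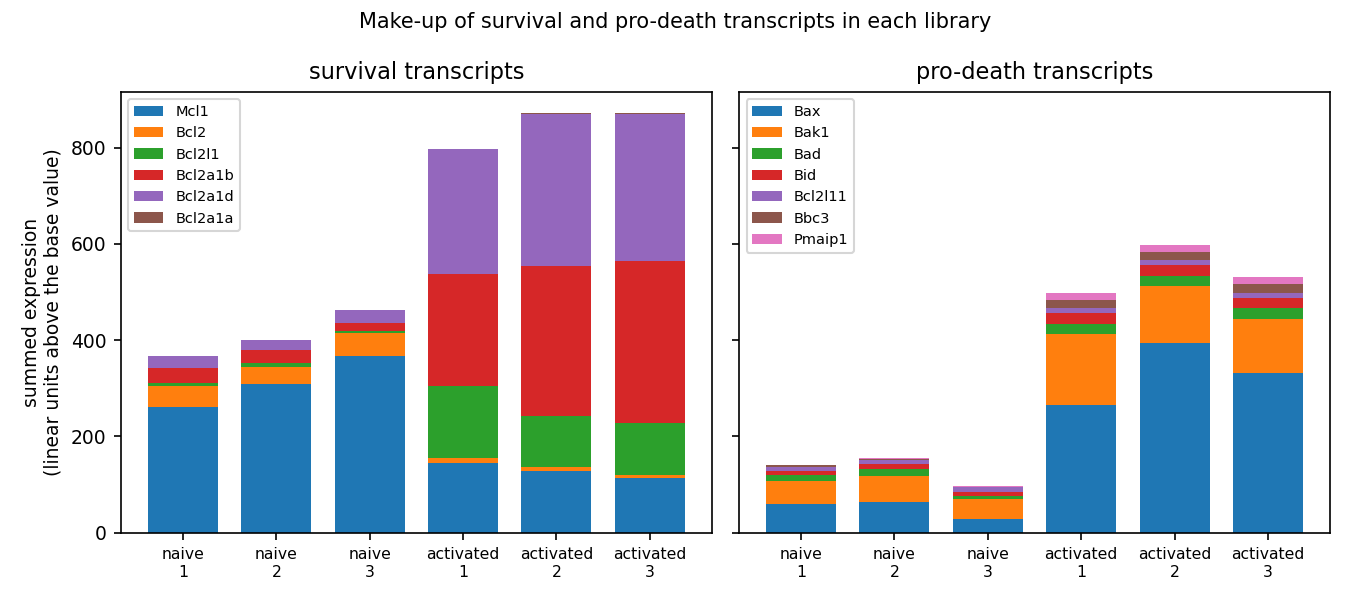
Stacked bars of expression in linear units above the base value (y axis) for each of 6 libraries, survival genes with the *Bcl2a1* copies on the left and pro-death genes on the right; values below the base are drawn as 0. *Mcl1* fills most of the naive survival bars, *Bcl2a1b*, *Bcl2a1d*, *Mcl1* and *Bcl2l1* share the activated ones, and *Bax* is the largest pro-death segment in all activated libraries.

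Of 15 further family genes listed, 12 were in the table and 11 were tested, of which 5 were higher, 1 was lower and 5 did not pass, so that the share called was near the 52.8% of all genes tested. Beside *Bcl2a1b* and *Bcl2a1d*, *Bcl2l2*, which encodes the survival protein BCL-W, rose by 0.90 on the log2 scale (adjusted p = 2.5e-05 from limma) from a naive mean of 2.31 close to the base, and it was not called at a 2-fold threshold. *Bcl2l12* had a log2 fold change of 1.03, which was 0.69 without naive replicate 3, where its value was 2.85 beside 3.88 and 3.83 in the other naive libraries. *Bnip3*, a mitochondrial protein gene induced by low oxygen, rose by 1.62 on the log2 scale with a wide spread in activated cells (5.98, 4.24 and 4.51), and its relative *Bnip3l*, which acts in the removal of mitochondria, fell by 1.42. Among the BH3-only genes outside the chosen 5, *Bmf* had a log2 fold change of -0.25 and *Bik* one of 0.53, and both lay within about 1 unit of log2 of the base in all libraries. *Bcl2l13* had 0.28 and *Bcl2l14* had 0.40. *Bcl2a1a*, *Bmf*, *Bik* and *Bcl2l14* had adjusted p-values under 0.05 (limma) with changes under 1.5-fold, and all 4 passed the fold threshold with a pseudocount of 0.5. *Bcl2l15* was too low to be tested, and *Bcl2l10*, *Bok* and *Hrk* were not analysed here.

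Genes around the family were listed by their place in the pathway, and together with the 15 further family genes just described these made 102, of which 99 were in the table and 95 tested. Of these, 37 were higher, 18 were lower and 40 did not pass, with a median log2 fold change of 0.40, and the shares were near the 31.2% higher and 21.6% lower of all genes tested. The genes whose products leave the mitochondria or form the apoptosome had 4 of 7 higher, beside 31.2% of all genes tested, and 3 did not pass. *Cycs*, cytochrome c itself, rose by 1.95, the protease gene *Htra2* by 2.50, the nuclease gene *Endog* by 2.41 and *Aifm1* by 1.07 on the log2 scale. In naive replicate 3 *Endog* was at 2.20, beside 3.30 and 3.48 in the other naive libraries. *Apaf1* and *Casp9*, the scaffold and the caspase of the apoptosome, did not pass, with log2 fold changes of -0.10 and -0.09.

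Among the caspase genes, *Casp8*, which cuts BID, fell by 1.55 on the log2 scale. *Casp1* and *Casp6* had log2 fold changes of -0.57 and -0.55, under the fold threshold. Among 5 inhibitors of apoptosis proteins, *Birc5* (survivin, which also serves in cell division) rose by 3.15, *Birc2* fell by 0.66 and *Birc6* fell by 0.63, while *Xiap* at -0.40 and *Birc3* at -0.10 did not pass.

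The death receptor genes had 1 of 10 higher and 5 lower, beside 31.2% and 21.6% of all genes tested. *Tnfrsf10b*, the mouse TRAIL receptor, rose by 1.49, and its ligand gene *Tnfsf10* fell by 1.16. *Cflar*, which encodes the caspase-8 inhibitor FLIP, fell by 0.88, *Ripk1* fell by 0.70, *Tnfrsf1a* fell by 0.68 and the adaptor *Cradd* fell by 0.65. *Bid*, the member that this pathway acts on, thus rose beside a fall of *Casp8*. Of 8 genes for partners of the family in or at the outer membrane, 5 were higher, beside 31.2% of all genes tested, and 3 did not pass: the channel genes *Vdac1*, *Vdac2* and *Vdac3* rose by 1.75, 1.05 and 0.97, and *Dynll2*, whose product tethers BMF, rose by 1.65. *Dynll1*, whose product binds BIM, changed by -0.45 in log2, which did not pass.

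**Figure D4:**
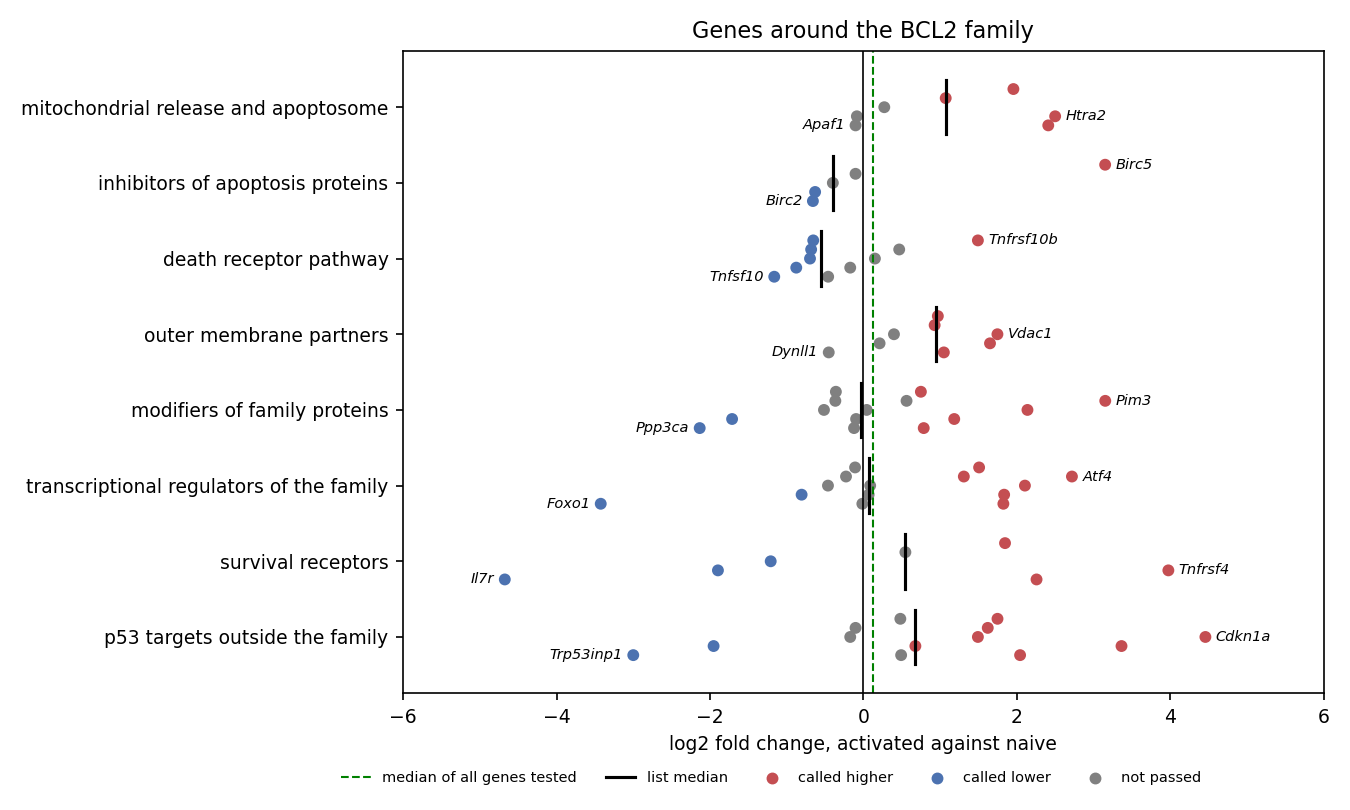
Log2 fold change of activated against naive cells (x axis) for each tested gene of 8 lists around the BCL2 family (rows); red was called higher, blue lower and grey did not pass, black bars are list medians and the dashed line is the median of all genes tested at 0.13. The medians of the mitochondrial release list and the outer membrane partners, 1.07 and 0.95, are the highest, and that of the death receptor list, -0.56, is the lowest.

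Genes whose products modify family proteins had 5 of 14 higher and 2 lower, not far from the 31.2% and 21.6% of all genes tested. The kinases *Pim3* and *Pim2*, which phosphorylate BAD, rose by 3.15 and 2.14 on the log2 scale. *Gsk3b*, a kinase that marks MCL1 for degradation, fell by 1.71, while its paralog *Gsk3a* (chosen after its value was seen) was higher by 0.75, and *Ppp3ca*, a catalytic subunit of calcineurin, which removes phosphate from BAD, fell by 2.13. *Mapk9*, a JNK kinase, and *Trim39* were at -0.51 and -0.37, short of the threshold.

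Transcription factor genes known to act on the family had 6 of 14 higher and 2 lower, beside the same 31.2% and 21.6%. *Foxo1*, which belongs to a family of factors that can switch on *Bcl2l11* and which maintains *Il7r* in naive T cells, fell by 3.42 (standard error 0.23, adjusted p = 1.6e-06 from limma). *Atf4* rose by 2.72, *E2f1* by 2.11, *Stat5a* by 1.83, the NF-κB subunit *Rel* by 1.82 and *Myc* by 1.51 on the log2 scale. *Trp53*, the gene of p53 and named here after its value was seen, had a log2 fold change of -0.23 (adjusted p = 0.16 from limma). Of 13 targets of p53 outside the family 7 were higher and 2 lower, again beside 31.2% and 21.6%. *Cdkn1a* rose by 4.46, *Phlda3* by 3.36 and *Sesn2* by 2.04, *Trp53inp1* fell by 3.00 and *Sesn1* fell by 1.95, and *Fas* had -0.17 and did not pass, on the log2 scale.

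Receptors that send survival signals to the family had 3 of 7 higher and 3 lower, beside 31.2% and 21.6% of all genes tested. *Il7r*, the receptor chain through which IL-7 keeps *Bcl2* high in resting T cells, went from 8.13, 7.90 and 8.74 in naive to 3.90, 3.57 and 3.29 in activated libraries. Its log2 fold change was -4.67 (standard error 0.23, adjusted p = 3.2e-07 from limma). *Cd28* fell by 1.90 on the log2 scale. *Tnfrsf4* (OX40) rose by 3.97, *Il2ra* by 2.26 and *Tnfrsf9* (4-1BB) by 1.85, while *Il2rb*, at 0.55, did not pass (adjusted p = 0.14 from limma).

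The genes whose pattern over the 6 libraries was nearest to that of *Bcl2l1*, by Euclidean distance after each gene's mean was subtracted, were *Plk1* (distance 0.20 log2 units), *Bub1b* (0.22) and *Aurkb* (0.25), which act in mitosis. Nearest to *Bcl2* were *Ssh2* (0.17), a phosphatase acting on cofilin, *Arid1a* (0.20), a chromatin remodelling subunit, and *Dock8* (0.22), a regulator of the actin skeleton. To be near by this distance a gene must have nearly the same change between the groups. The log2 fold changes were 3.81, 3.64 and 3.515 beside 3.67 for *Bcl2l1*, and -1.85, -1.77 and -1.91 beside -1.88 for *Bcl2*. Shared control of these genes was not tested.

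Promoters were read from RefSeq (GRCm38.p6), 250 bases before to 50 after each start, for the 9 members with an entry (15 starts in all). Of 4 motifs searched on both strands, the p53 half-site occurred in 8.36% of 32851 promoters, the κB site in 8.46%, the FOXO site TGTTTAC in 3.65% and the STAT site TTCNNNGAA in 8.30%. They are shown because the genes of the factors themselves are described above. The matches follow, in capitals, on the strand of the gene, and the motifs do not overlap each other.
*Bax*, p53 half-site, in the promoter chr7:45466849-45467148 (minus strand): agcatatcccAGGCAAGCTTtgaacttgcg
*Bcl2l1*, κB site, in the promoter chr2:152830668-152830967 (minus strand): tgtttgtgGGGGGTCTCCagcatacgcc
*Bbc3*, κB site, in the promoter chr7:16309333-16309632 (plus strand): tctggctgccGGGAAACCCCccgcgccgag
*Bbc3*, FOXO site, in the promoter chr7:16310011-16310310 (plus strand): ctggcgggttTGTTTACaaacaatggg
*Bcl2l11*, FOXO site on the reverse strand, in the promoter chr2:128125788-128126087 (plus strand): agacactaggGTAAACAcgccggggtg
A second κB match in *Bbc3* began 1 base further on and overlapped the one shown. The STAT site was found in no member's window. A match is a stretch of letters only, and no binding was measured.

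Exons of some members overlap other genes, and whether reads were counted by strand was not stated in the labels or methods read here. *Bad* shares 524 exonic bases (20.5%) with *Gpr137* on the opposite strand, which itself rose by 1.24 on the log2 scale (adjusted p = 6.4e-04 from limma), so that reads of the pair may be mixed. *Bak1* shares 614 bases (25.5%) with *Ggnbp1*, which had a log2 fold change of 0.05, and *Bid* shares 628 bases (17.7%) with *Bcl2l13*, at 0.28, and neither neighbor passed the test. *Bax* shares 192 bases with Gm45808 and *Bcl2* 558 bases with D630008O14Rik, which were not analysed here.

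Libraries were not equally alike. Across the genes tested, the log2 values of naive replicates 1 and 2 differed with an SD of 0.16, against 0.35 and 0.38 for naive replicate 3 and each of them. For activated replicates 2 and 3 this SD was 0.11, against 0.29 and 0.28 for activated replicate 1. The closer pairs also held identical values away from the base, for 352 genes in the naive and 670 in the activated pair. No libraries were the same throughout, and each was counted as 1 sample. If the libraries of a closer pair are not independent, the standard errors, SDs and p-values given here are too small. With naive replicate 3 and activated replicate 1 both left out, the same 7 members were higher and the same 2 lower. The T cell markers were present in all libraries, with summed levels of 4083 to 4642 units above the base in naive and 1614 to 1757 in activated cells, where 5 of 7 were called lower. B cell markers summed to 8.89 to 37.6 and 10.5 to 18.04 units (6 of 6 tested did not pass), myeloid markers to 150.3 to 326.7 and 144.3 to 157.8 (*Cd14* and *Adgre1* under 1 unit in all libraries, and 2 of 5 tested lower). CD8 and NK markers summed to 131.7 to 174.3 and 185.8 to 263.5 units, of which *Nkg7* was called higher, while 3 of 5 tested were lower (*Cd8b1*, *Klrd1* and *Klrb1c*). Regulatory T cell markers summed to 145.0 to 186.2 and 255.0 to 509.3 units with *Il2ra* the 1 called higher, while *Foxp3*, *Ikzf2* and *Gpr83* were lower. The part of these cells in the values of the BCL2 family was not tested.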

How the data were processed

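PolyA RNA of 3 naive and 3 activated samples was sequenced, and samples were grouped by the submitters' labels. Per the submitters' processing notes and the study's methods, reads were aligned to mm10 with HISAT2 2.0.5, assembled with StringTie 1.3.3b and counted with featureCounts 1.5.0-p3. The authors deposited log2 values headed FPKM in a table named for ComBat, a batch correction. For its batches and for the offset behind the base value no description was found. Without counts the precision that depth gives is unknown, and such a correction may itself narrow the spread of replicates.

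The filter kept 10173 genes, those exceeding the base value by 1 linear unit or more in 3 or more libraries, and left out 4206. The deposited log2 values were fitted with limma 3.58.1 in R 4.3.3 (lmFit, eBayes with trend, no covariate). The same fit was also run on simulated data with independent noise in each library. That setting lacks the near-identical library pairs, so it cannot check error rates in their presence. Calls needed an adjusted p under 0.05 and a fold of 1.5, the threshold of the study's methods. Python 3.11.15, pandas 2.3.3, numpy 2.4.6 and matplotlib 3.10.9 made the tables and figures. Gene positions and coding sequences came from GENCODE M21 and promoters from RefSeq.

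The members and gene lists were chosen with earlier results of these data known. Named were the 10 members, all other listed family genes, and in each pathway list up to 4 called genes of largest change whose groups did not overlap and up to 2 further genes of largest change in the direction opposite to the first of these. Not every gene that this rule names is reported here. Also named were the 3 genes nearest in pattern to the members of highest and lowest change. Alternatives were pseudocounts of 0.5 and 1, no filter and one of 5 units, quantile and median-of-ratios scaling, limma without trend, a replicate block, each library left out, naive replicate 3 and activated replicate 1 left out together, near-identical libraries averaged, and a 2-fold or no fold threshold.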

Additional observations from a re-analysis of the deposited data

How the results depend on the processing

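In every alternative 7 members were called higher and 2 lower, except that with a 2-fold threshold *Bad* was not called. *Bcl2l11* changed sign under median-of-ratios scaling, with a log2 fold change of -0.00555, and its adjusted p from limma ranged from 0.10 to 0.97. Of the 95 pathway and further family genes tested, 18 were lower, and 11 with a 2-fold threshold, which by construction calls fewer. Over all genes that threshold gave 1913 higher and 1181 lower. Quantile scaling shifted the median of all genes by -0.129, and without the filter it shifted by -0.117. Quantile scaling called 2595 genes higher and 2637 lower, beside 3175 and 2195. With each library left out in turn the pathway lists had 37 to 40 genes higher and 16 to 19 lower, and *Bik* was called without naive replicate 1 (log2 fold change 0.64) or activated replicate 3 (0.60) and *Bcl2a1a* without naive replicate 2 (0.63). With the replicate number as a block, 7 members were higher and 2 lower, and 3181 and 2202 of all genes. Deviations of same-numbered naive and activated libraries had correlations of -0.011, -0.051 and -0.138. The highest of any combination was 0.173, for naive replicate 2 with activated replicate 3. The numbers were not taken as pairs. These correlations cannot show whether libraries were paired, since a batch correction with undescribed batches may have removed what a pair shared. The block changed no call of a member. The table has no counts, so the limits that depth sets are unknown. Genes near the base depend on the pseudocount: with 0.5 the log2 fold change of *Bcl2a1a* was 1.87 in place of 0.55, that of *Bik* 1.63 in place of 0.53 and that of *Bcl2l2* 1.96 in place of 0.90.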
